A study of Mus musculus with 12 samples.

Results

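MC38 is a line of mouse colon adenocarcinoma cells, and the subject here is the guide by lactate interaction, that is, how the response to lactate of cells with a guide RNA against Hcar1 differed from that of cells with a control guide. All 12 libraries of the series enter it. Cells carried sgControl or sgHcar1 and received PBS, the saline vehicle, or 20 mM lactate for 24 hours, with 3 libraries in each of the 4 groups. The quantity for each gene is its lactate effect in sgHcar1 cells (lactate minus PBS) minus its lactate effect in sgControl cells, on the scale log2(FPKM + 1), where FPKM are fragments per kilobase of gene model, scaled to the library's total. A positive difference of lactate effects means a higher change in sgHcar1 cells and a negative one a lower change. The genes described are the 9720 of the 42329 entries of the table that had at least 1 FPKM in each of the 12 libraries, so that a gene silent under 1 guide could not lead the comparison. The model was fitted to 13736 genes that reached 1 FPKM in 3 or more libraries, and p-values were adjusted over all of these.

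The labels name 1 guide for each population and do not say whether a population is 1 clone or a pool. The targeted gene gave no check of the guide, because Hcar1 was listed at 0 in all 12 libraries but 1, a library of sgHcar1 cells in PBS with 0.0196 FPKM. The action of the guide on Hcar1 and other differences between these populations therefore cannot be told apart. Nor do the labels give separate cultures for the 3 libraries within a group. The p-values then reflect spread among these libraries only, which may be technical.

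HCAR1 (GPR81) is a receptor for lactate that couples to inhibitory G proteins and lowers cyclic AMP. Lactate also enters cells through monocarboxylate transporters together with a proton, and so reaches metabolism and pH without the receptor. A pair of stress programmes recurs below. In the heat shock response, the factor HSF1 is released by unfolded protein in the cytosol and induces chaperones such as Hsp70 and Hsp40. In the integrated stress response, phosphorylation of the initiation factor eIF2 favours translation of ATF4, which induces amino acid synthesis and transport genes. An interaction contrast asks whether the step from PBS to lactate has the same size in both populations, whatever level each starts from.

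Libraries of a group were alike, with correlations of log2 values of 0.994 to 0.996 within groups. The depth in reads is unknown. Relative depth read from the steps between low values was 0.887 to 1 with sgControl. With sgHcar1 it was 0.866 to 0.933 in PBS and 0.746 to 0.794 in lactate, the lowest of the 4 groups. The part of depth in the results was not tested. The FPKM of a library summed to 310109 to 324562 with sgControl, and with sgHcar1 to 362815 to 367977 in PBS and 411996 to 421984 in lactate. Of 15 colon epithelium markers with an entry, Epcam and Cdx2 were at 0 in all 12 libraries. Their summed level was 4.32 to 6.95 FPKM with sgControl, and with sgHcar1 46.4 to 49.6 in PBS and 112 to 116 in lactate, nearly all of it Krt18 in the sgHcar1 groups. Cdh1 went the other way, with means of 1.72 FPKM in PBS and 4.53 in lactate with sgControl, and 0 in both sgHcar1 groups. Krt19 had 1.31 and 0.30 FPKM with sgControl and likewise 0 with sgHcar1, and Krt8 was at most 0.251 in any library. The 12 fibroblast markers summed to 276 to 286 FPKM in sgControl cells in PBS, 238 to 253 with lactate, and in sgHcar1 cells to 185 to 196 in PBS and 81.9 to 86.8 with lactate, with Lum and Thy1 at 0 in all libraries. The 15 leukocyte markers summed to 9.3 to 21.1 FPKM and the 10 endothelium markers to 1.65 to 3.38, with Cd3e, Adgre1, Itgam, Nkg7, S100a9 and Tyrobp at 0. The marker sums move with guide and treatment, but single fibroblast markers went both ways. In PBS the mean of Col1a2 was 45.5 FPKM with sgControl and 115 with sgHcar1, and that of Col3a1 67.2 and 1.55. In sgHcar1 cells the mean of Pdgfrb rose from 5.08 to 11.6 FPKM with lactate, while the sum fell. The part of the markers in the results was not tested. In bulk samples fewer cells of a type and less RNA per cell cannot be told apart.

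The lactate effects of the 2 guides differed for most genes, and the differences were mostly modest. Of the 9720 genes, 6182 had a called difference, that is, an adjusted p below 0.05 from limma with Benjamini-Hochberg adjustment. This is 63.6% of them, beside 59.1% of all genes tested. A higher change in sgHcar1 cells was called for 3208 of the 9720 (33.0%) and a lower change for 2974 (30.6%). Over all 13736 genes tested these shares were 30.4% and 28.7%. The median size of the difference was 0.30 on the log2 scale, with a median standard error of 0.08. A called difference of at least 1, which is 2-fold, was found for 257 of the 9720 in the higher direction and 270 in the lower. Over all genes tested 4.19% and 3.59% had one, counting genes below the expression minimum. The even split holds for the scale of the deposited values: rescaling each library to the same FPKM sum moved the median over all genes by -0.21 and the share of higher changes among called genes from 51.9% to 27.7%. Directions of single genes and lists below are given on the deposited scale, and lists whose median turned under another scaling are named as such. Counts of calls in the lists below stand beside the shares of 30.4% and 28.7% over all genes tested.

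Both effects mostly pointed the same way. Across the 9720 genes the lactate effect in sgControl cells and that in sgHcar1 cells had a Pearson correlation of 0.70 (Spearman 0.69), a description across genes, which are not independent replicates. The groups behind these effects share no library. Among the genes with a called difference, 1325 rose in both populations and more in sgHcar1 cells, and 983 fell in both and more in sgHcar1 cells. Another 478 rose in both but less in sgHcar1 cells, and 401 fell in both but less. A rise in sgControl cells with a fall in sgHcar1 cells was called for 451 genes, and the opposite pair for 438. A called change in sgHcar1 cells alone was found for 655 rising and 684 falling genes, and in sgControl cells alone for 362 rising and 370 falling genes, while 35 had neither effect called. Over all genes tested, lactate was called higher than PBS for 33.9% and lower for 31.9% in sgControl cells, against 36.8% and 35.4% in sgHcar1 cells. Movement of at least 2-fold in opposite directions was rare, with 3 genes against 427 that moved at least 2-fold the same way in both populations.

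**Figure D1:**
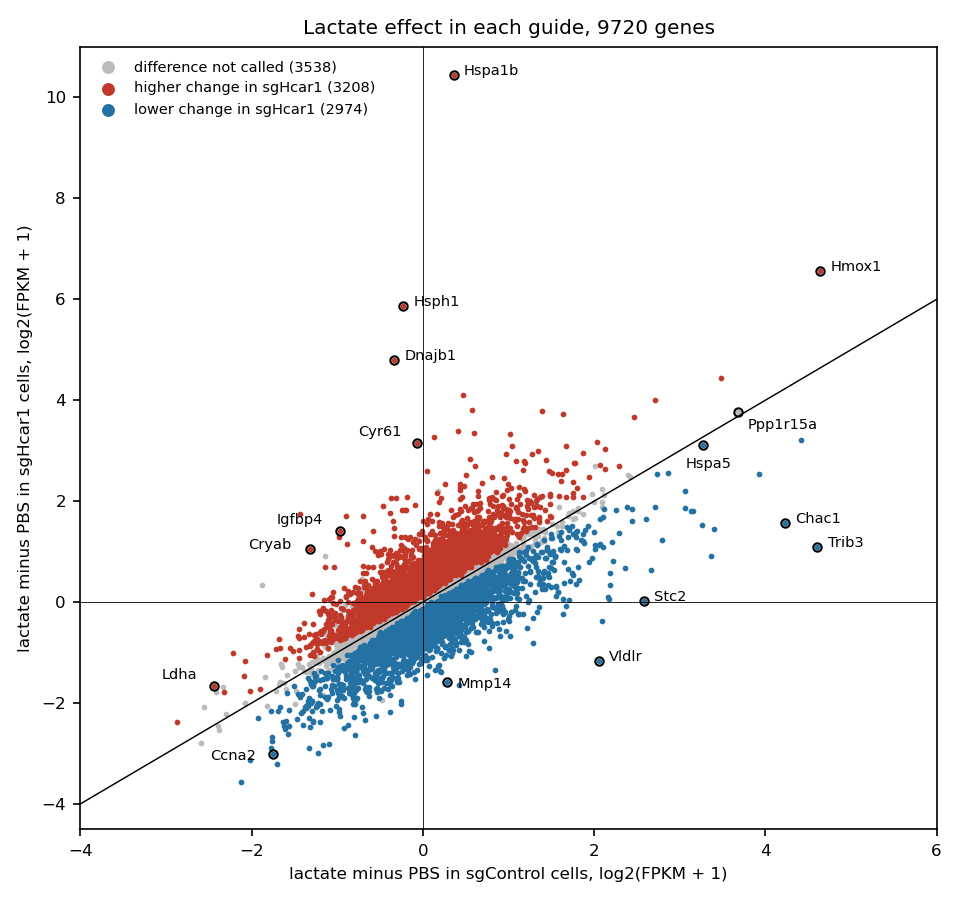
Each point is 1 of 9720 genes, with its lactate effect (lactate minus PBS, log2(FPKM + 1), limma estimate from 3 libraries per group) in sgControl cells on the horizontal axis and in sgHcar1 cells on the vertical axis; the diagonal marks equal effects. Colours mark the 3208 genes with a higher and the 2974 with a lower change in sgHcar1 cells, and Hspa1b, Hsph1 and Dnajb1 stand far above the diagonal while Trib3, Chac1, Stc2 and Vldlr lie below it.

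**Figure D2:**
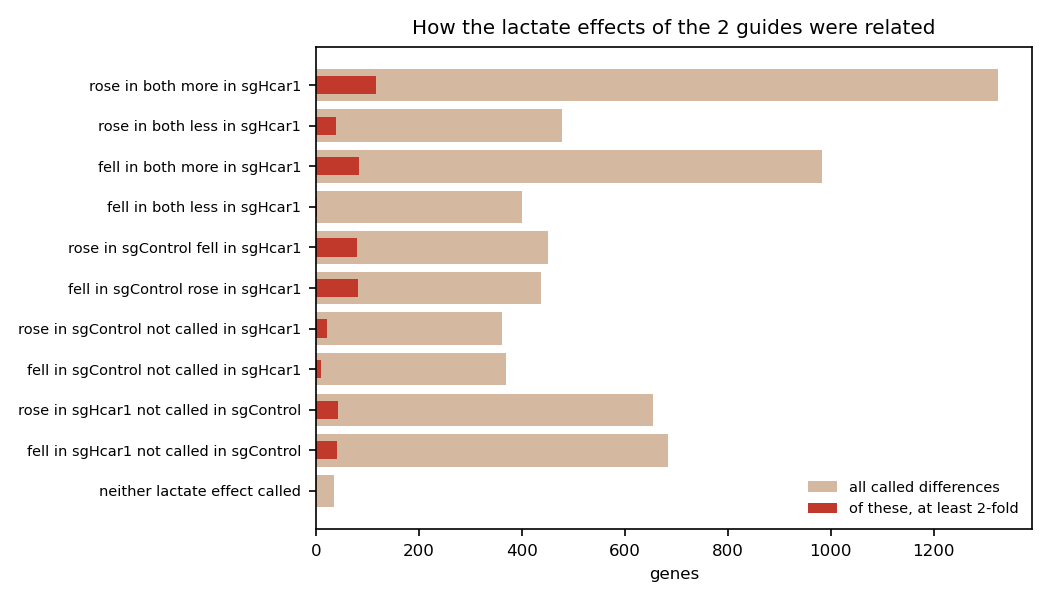
Bars count genes with a called difference of lactate effects by the pattern of the 2 effects, and the inner bars count those with a difference of at least 2-fold. The most frequent patterns are a rise in both populations that was larger in sgHcar1 cells (1325 genes) and a fall in both that was larger there (983).

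The same difference can be read as a change of the gap between guides. Among the 6182 called genes, the guides lay farther apart in lactate than in PBS, on the same side, for 2951 (47.7%), nearer for 1369 (22.1%), and on opposite sides for 1862 (30.1%), of which 906 had both gaps called. Over all 9720 genes, called or not, the shares were 48.4%, 29.2% and 22.4%. The median size of the gap between guides over the 6182 called genes was 0.39 in PBS and 0.56 in lactate, in log2 units. Over all 9720 genes it was 0.38 and 0.49. Over all genes tested, sgHcar1 was called higher than sgControl in PBS for 38.2% and lower for 38.4%, and in lactate higher for 41.3% and lower for 40.9%. At the edge of the expression minimum, of 132 genes whose lowest library had 1 to 1.1 FPKM, 67 had a called difference (median -0.18), and of 144 with 0.9 to 1 FPKM there, 64 had one (median -0.12).

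Cytosolic chaperones had the largest positive differences. The list of heat shock chaperones and their regulators held 40 genes, of which 34 had an entry, 32 were tested and 30 reached the minimum in all libraries. Of these 30, 23 had a higher and 1 a lower change in sgHcar1 cells, with a median difference of 1.00 beside 0.01 over all genes tested, and 15 differed by at least 2-fold. In sgControl cells 11 rose and 15 fell with lactate (median -0.13), while in sgHcar1 cells 26 rose and 3 fell (median 0.78).

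Stretches upstream of 4 chaperone genes are shown, chosen because they hold the heat shock element, the sequence bound by HSF1, which is in capitals. Dnajb1 and Bag3, whose differences were larger than those of Dnajb4 and Hspe1, have no match upstream of the start in their windows. They were read 5′ to 3′ on the gene's strand from RefSeq promoter windows of GRCm38.p6 that run from 250 bases before to 50 after the start. Hspa1b lies at chr17:34959295-34959382 (minus strand), Hsph1 at chr5:149636322-149636409 (minus), Hspe1 at chr1:55088019-55088116 (plus) and Dnajb4 at chr3:152193846-152193899 (minus), all upstream of the annotated start.
Hspa1b: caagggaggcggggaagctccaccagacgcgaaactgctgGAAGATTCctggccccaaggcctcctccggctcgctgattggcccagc
Hsph1: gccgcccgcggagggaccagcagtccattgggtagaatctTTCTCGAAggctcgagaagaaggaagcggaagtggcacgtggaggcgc
Hspe1: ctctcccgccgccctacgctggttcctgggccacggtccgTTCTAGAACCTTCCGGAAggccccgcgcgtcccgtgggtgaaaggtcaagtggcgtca
Dnajb4: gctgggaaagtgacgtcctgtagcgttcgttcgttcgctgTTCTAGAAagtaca
The letters searched were GAANNTTC and TTCNNGAA, each of which reads the same on both strands. They occurred in the windows of 11 of the 25 chaperone genes matched to RefSeq (44.0%), and in 17.0% of all 27025 genes with a window. A chained form, in which NN and another GAA or TTC unit follow in alternation, occurred in 5 of the 25 (20.0%), beside 0.662% of all genes. Hspe1 holds 3 overlapping matches, and the window of its head-to-head neighbour Hspd1 shares 285 bases with it, so these are not separate cases. Such a match describes the letters of the window and not a bound site.

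Hspa1b, which encodes an inducible Hsp70, had the largest difference of the 9720 genes. Its FPKM were 22.9, 21.7 and 23.4 in sgControl cells in PBS and 27.6, 30.9 and 29.6 with lactate, against 1.26, 1.42 and 1.55 in sgHcar1 cells in PBS and 3405, 2770 and 3984 with lactate. The sgHcar1 libraries were thus the lowest of all in PBS and the highest of all in lactate, with no overlap. The lactate effect was 0.36 ± 0.11 (SE, n = 3 per group, as for all differences below) in sgControl and 10.44 ± 0.11 in sgHcar1 cells, a difference of 10.08 ± 0.15 (limma adjusted p = 2.43e-11). Hspa1b and its neighbour Hspa1a are near-identical, so how reads were shared between them is uncertain.

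The Hsp110 gene Hsph1, a nucleotide exchange factor for Hsp70, was also lowest in sgHcar1 cells in PBS and highest in sgHcar1 cells in lactate. It had 35.4, 34.5 and 35.4 FPKM in sgControl cells in PBS, 29.9, 29.8 and 29.5 with lactate, 17.3, 17.5 and 18.6 in sgHcar1 cells in PBS, and 1116, 972 and 1205 with lactate. It fell slightly in sgControl cells (-0.23 ± 0.06) and rose by 5.87 ± 0.06 in sgHcar1 cells. The Hsp40 gene Dnajb1 went from 50.7, 47.9 and 52.8 to 39.97, 39.2 and 39.99 FPKM in sgControl cells and from 31.9, 35.6 and 28.9 to 956, 783 and 1014 in sgHcar1 cells. Lactate libraries of sgHcar1 cells stood above all others for both genes, and the differences were 6.10 ± 0.09 and 5.12 ± 0.13.

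Bag3, a co-chaperone that links Hsp70 to selective autophagy, rose in both populations, from 23.7 to 25.4 FPKM up to 33.0 to 35.7 in sgControl cells and from 12.7 to 13.6 up to 205 to 274 in sgHcar1 cells (difference 3.64 ± 0.12). Dnajb4, another Hsp40, had 6.55 to 7.22 and 7.43 to 7.96 FPKM in sgControl cells without a called change, and rose from 5.52 to 6.26 up to 60.5 to 71.6 FPKM in sgHcar1 cells (difference 3.14 ± 0.09). The Hsp40 Dnaja1 (1.96 ± 0.10), the Hsp110 relative Hspa4l (1.80 ± 0.06), the Hsp90 activator Ahsa2 (2.04 ± 0.07) and the Hsp70-Hsp90 adaptor Stip1 (1.21 ± 0.05) each fell in sgControl cells and rose in sgHcar1 cells. Hsp90ab1, the constitutive cytosolic Hsp90, fell from 1514 to 1587 down to 1317 to 1369 FPKM in sgControl cells and rose from 1104 to 1177 up to 1864 to 2202 in sgHcar1 cells (difference 1.05 ± 0.08). Its values in untransformed FPKM gave a difference of the same sign with an adjusted p of 0.0878.

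Members of the list that act in mitochondria or are small heat shock proteins did not move as 1 block. Hspe1, the mitochondrial co-chaperonin Hsp10, had 101, 108 and 108 FPKM in sgControl cells in PBS and 92.0, 84.0 and 99.9 with lactate, against 225, 227 and 224 in sgHcar1 cells in PBS and 795, 757 and 851 with lactate (difference 2.02 ± 0.09). Its partner Hspd1, Hsp60, rose in both populations, by 0.29 ± 0.06 and by 1.20 ± 0.06. The mitochondrial Hsp70 gene Hspa9 was the 1 member of the list with a lower change in sgHcar1 cells: it rose from 153 to 156 up to 357 to 374 FPKM in sgControl cells and from 331 to 340 up to 535 to 567 in sgHcar1 cells (-0.53 ± 0.04), although the step in FPKM was about equal. The small heat shock protein gene Cryab moved in opposite directions, from 72.3, 72.8 and 76.7 to 28.2, 28.7 and 30.3 FPKM in sgControl cells and from 3.53, 4.40 and 4.28 to 9.56, 8.33 and 10.5 in sgHcar1 cells (difference 2.36 ± 0.11). Hsf1 itself rose alike in both populations, by 0.45 ± 0.05 and 0.41 ± 0.05, and the difference of -0.04 ± 0.07 was not called (adjusted p = 0.635).

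**Figure D3:**
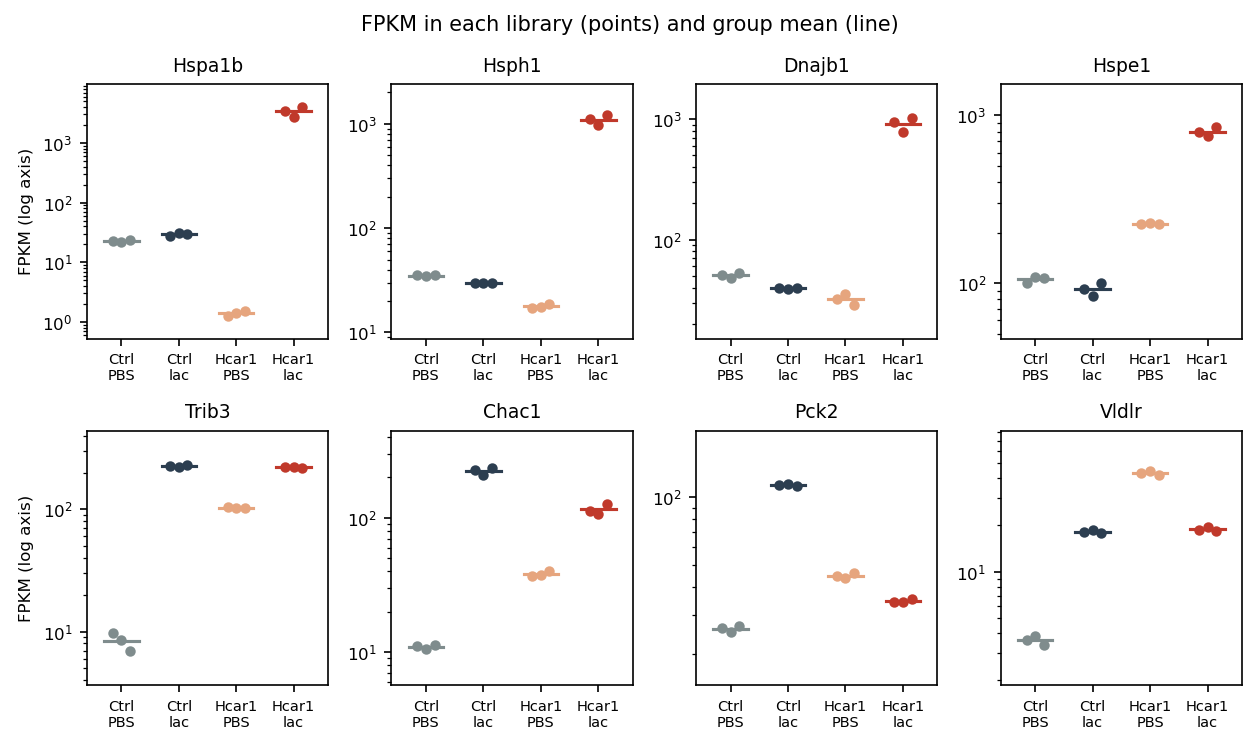
Points are the FPKM of single libraries on a log axis and lines are group means, for 4 chaperone genes (top) and 4 ATF4 targets (bottom), in sgControl (Ctrl) and sgHcar1 (Hcar1) cells in PBS or lactate (lac), 3 libraries per group. The chaperone genes reach their highest level in sgHcar1 cells in lactate, while Trib3 and Vldlr of the 2 guides differ in PBS and meet in lactate.

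Other parts of the protein folding and degradation machinery had smaller differences of the same sign. All 7 subunits of the cytosolic chaperonin CCT that were measured in every library had a higher change in sgHcar1 cells (median 0.40), and 6 of the 7 with library sums set equal (median 0.17) or under quantile normalization (median 0.23). Cct3 went from 77.8 to 80.3 down to 54.2 to 58.8 FPKM in sgControl cells and from 76.2 to 76.7 up to 109 to 118 in sgHcar1 cells (difference 1.02 ± 0.05). The proteasome, which degrades ubiquitin-tagged proteins, had 29 such subunits, of which 28 had a higher change in sgHcar1 cells and 1 had no called difference (median 0.55). In sgControl cells 27 of the 29 fell with lactate, and in sgHcar1 cells 15 rose and 13 fell. Psmc2, an ATPase of the regulatory particle, had 32.8 to 34.1 and 31.3 to 32.1 FPKM in sgControl cells, and 26.3 to 28.2 and 59.0 to 62.2 in sgHcar1 cells (1.22 ± 0.04). Psmb7, a catalytic core subunit, fell from 31.1 to 31.8 down to 16.9 to 18.1 FPKM in sgControl cells and rose from 28.7 to 30.9 up to 31.7 to 35.5 in sgHcar1 cells (1.01 ± 0.06). With library sums set equal, 22 of 29 proteasome subunits still had a higher and 1 a lower change.

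Targets of ATF4 had the largest negative differences. Of 40 genes on that list, 39 were tested and 34 reached the minimum in all libraries. Of these 34, 30 had a lower and 1 a higher change in sgHcar1 cells, with a median difference of -1.26, and 20 differed by at least 2-fold. Lactate raised 32 of the 34 in sgControl cells (median 2.03), and raised 25 and lowered 5 in sgHcar1 cells (median 0.65). The guides differed before lactate was added: in PBS 32 of 34 were higher in sgHcar1 than in sgControl cells (median 1.16), and in lactate 17 were higher and 12 lower (median 0.09).

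Stretches upstream of 4 of these genes are shown because they hold the C/EBP-ATF element TGATGNAA, the composite sequence to which ATF4 binds with C/EBP partners, in capitals and in either orientation. Chac1 lies at chr2:119351009-119351096 (plus strand), Pck2 at chr14:55540123-55540210 (plus), Pycr1 at chr11:120643804-120643891 (minus) and Slc7a11 at chr3:50443614-50443719 (minus), all in GRCm38.p6 and upstream of the RefSeq start. The changes of Chac1, Pck2 and Pycr1 differed between guides, and that of Slc7a11 had no called difference.
Chac1: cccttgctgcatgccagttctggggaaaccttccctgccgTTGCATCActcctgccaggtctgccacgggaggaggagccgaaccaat
Pck2: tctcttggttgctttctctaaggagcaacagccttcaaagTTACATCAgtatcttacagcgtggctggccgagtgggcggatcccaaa
Pycr1: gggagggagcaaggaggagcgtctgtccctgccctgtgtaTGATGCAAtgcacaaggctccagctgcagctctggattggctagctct
Slc7a11: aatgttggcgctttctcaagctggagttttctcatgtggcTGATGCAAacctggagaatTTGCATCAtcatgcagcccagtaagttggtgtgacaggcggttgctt
The element, searched on both strands, occurred in the windows of 10 of the 29 ATF4 targets matched to RefSeq (34.5%) and in 4.51% of all 27025 genes. Slc7a11 holds 2 copies in opposite orientation.

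Atf4 itself had 226, 216 and 221 FPKM in sgControl cells in PBS and 767, 769 and 767 with lactate, against 507, 499 and 478 in sgHcar1 cells in PBS and 637, 636 and 623 with lactate. The order of the guides thus turned between PBS and lactate, with no overlap, and the difference was -1.44 ± 0.04 (adjusted p = 2.32e-09). Trib3, a pseudokinase that feeds back on ATF4, had 9.73, 8.46 and 6.97 FPKM in sgControl cells in PBS and 105, 103 and 102 in sgHcar1 cells. With lactate the guides overlapped, at 227, 221 and 229 against 223, 224 and 220 FPKM. Its difference was -3.51 ± 0.11.

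Enzymes of the pathway showed several forms of this pattern. Chac1, which degrades glutathione, rose from 11.05, 10.7 and 11.3 to 226, 210 and 237 FPKM in sgControl cells and from 37.0, 37.4 and 40.3 to 113, 106 and 126 in sgHcar1 cells (-2.66 ± 0.09). The mitochondrial carboxykinase Pck2, which makes phosphoenolpyruvate, rose from 26.1, 25.2 and 26.6 to 114, 115 and 113 FPKM in sgControl cells but fell from 44.5, 43.7 and 46.2 to 34.1, 34.1 and 35.1 in sgHcar1 cells (-2.46 ± 0.04). Here the guides changed order with no overlap in either treatment. The folate enzymes Aldh1l2 (-2.45 ± 0.08) and Shmt2 (-2.07 ± 0.06) started much higher in sgHcar1 cells. Shmt2 had 37.9 to 42.1 and 183 to 186 FPKM in sgControl cells, and 211 to 232 and 230 to 240 in sgHcar1 cells, where the change was not called. The serine enzyme Psph (-1.86 ± 0.07), the alanine transaminase Gpt2 (-2.02 ± 0.08) and the proline enzyme Pycr1 (-1.21 ± 0.07) rose in both populations, each less in sgHcar1 cells.

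The genes of the secreted Stc2 and the surface receptor Vldlr were among the most divided of the list. Stc2, the hormone stanniocalcin 2, started alike at 1.71, 1.82 and 1.76 against 1.72, 1.81 and 1.75 FPKM, and reached 15.2, 14.7 and 16.8 in sgControl cells with lactate. In sgHcar1 cells with lactate it had 2.09, 1.84 and 1.55 FPKM, a change of 0.03 ± 0.07 that was not called, and the difference was -2.55 ± 0.10. Vldlr, a lipoprotein receptor, did the reverse of Stc2: the guides differed in PBS, at 3.64, 3.84 and 3.38 against 43.3, 44.4 and 42.1 FPKM, and met in lactate, at 18.1, 18.5 and 17.9 against 18.5, 19.5 and 18.3. Its rise with sgControl and its fall with sgHcar1 were both called (-3.21 ± 0.06). The transcription factor Atf5 likewise went from 29.4 to 31.5 up to 140 to 144 FPKM in sgControl cells, and had 116 to 125 and 121 to 131 in sgHcar1 cells without a called change (-2.11 ± 0.06).

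The scale matters where the sgHcar1 start was high. Ddit3, the factor CHOP, rose from 10.9 to 12.8 up to 187 to 214 FPKM in sgControl cells and from 63.5 to 67.1 up to 368 to 399 in sgHcar1 cells, so its difference was -1.38 ± 0.09 on the log2 scale and 132 FPKM in the other direction without the logarithm. Asns, asparagine synthetase, was alike in this, with -1.10 ± 0.05 in log2 units and a step larger by 43.9 FPKM in sgHcar1 cells. The stress sensor Sesn2, which inhibits mTORC1, had -1.69 ± 0.11 in log2 units and a step larger by 1.44 FPKM in sgHcar1 cells, with an adjusted p of 0.665 for the latter. Over all 6182 called genes, 314 (5.08%) had opposite signs on the 2 scales, and 16 of the 527 that differed by at least 2-fold (3.04%).

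Not every ATF4 target differed. Ppp1r15a, which encodes GADD34 and returns eIF2 to its unphosphorylated state, rose from 10.2, 10.9 and 10.8 to 150, 147 and 145 FPKM in sgControl cells and from 23.3, 23.6 and 24.7 to 328, 325 and 359 in sgHcar1 cells. The difference was 0.09 ± 0.06 (95% interval -0.04 to 0.22), and under quantile normalization it was -0.39 and called. Nupr1, a stress-induced chromatin protein (0.05 ± 0.09), and the cystine transporter subunit Slc7a11 (-0.13 ± 0.07) also had no called difference, but each had one under quantile normalization, at -0.25 and -0.21, as did Slc7a11 with library sums set equal, at -0.44. Tubb6, a tubulin, was the 1 member with a higher change: it fell in both populations, less so in sgHcar1 cells on the log2 scale (0.30 ± 0.05) and more so in FPKM. Its call was lost with library sums set equal (0.08) and under quantile normalization (0.17).

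**Figure D4:**
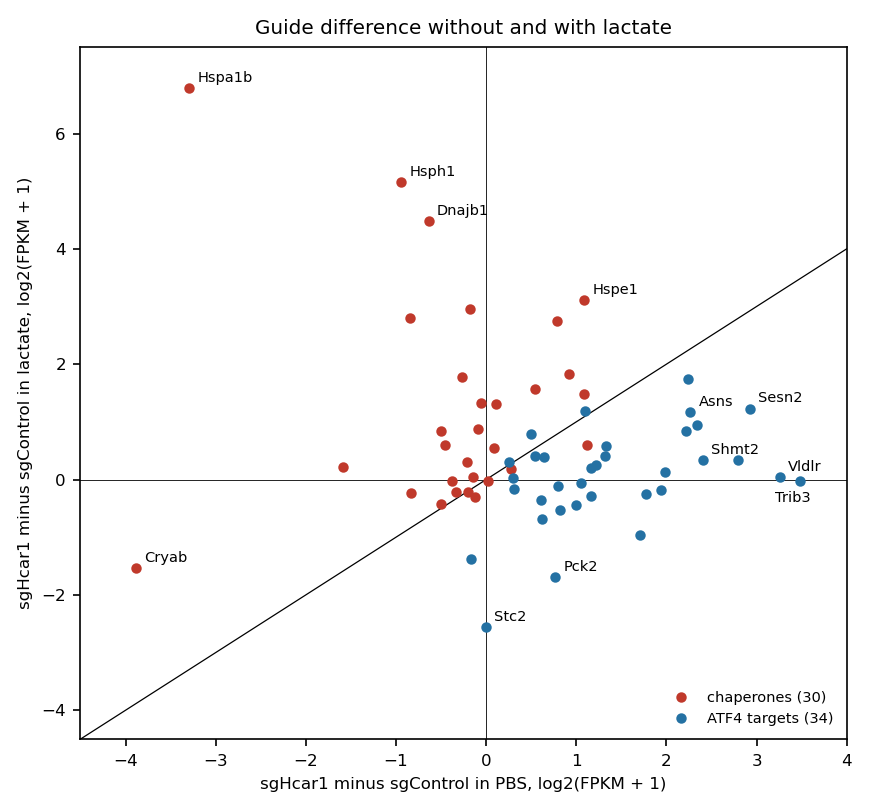
Each point is a gene of the heat shock chaperone list (30 genes) or the ATF4 list (34 genes), with sgHcar1 minus sgControl in PBS on the horizontal axis and in lactate on the vertical axis, both in log2(FPKM + 1); points off the diagonal have unequal lactate effects. Most chaperones lie above the diagonal and most ATF4 targets lie to the right of 0 and below it, 32 of 34 being higher in sgHcar1 cells in PBS.

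Aminoacyl-tRNA synthetases, which load tRNAs and are partly under ATF4, were split. Of 20, 13 had a lower and 7 a higher change in sgHcar1 cells (median -0.41), and with library sums set equal 13 were lower and 1 higher. Gars, the glycyl enzyme, rose from 72.4 to 75.2 up to 202 to 207 FPKM in sgControl cells and from 174 to 181 up to 222 to 225 in sgHcar1 cells (-1.12 ± 0.03). Mars, the methionyl enzyme, rose with sgControl (0.42 ± 0.03) but fell with sgHcar1 (-0.31 ± 0.03). Sars, the seryl enzyme, rose less in sgHcar1 cells in log2 units (-0.71 ± 0.03) but by 46.9 FPKM more without the logarithm.

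The unfolded protein response of the endoplasmic reticulum was induced in both populations. All 24 genes of that list measured in every library rose in both, by a median of 1.64 in sgControl and 1.69 in sgHcar1 cells. The difference was higher in sgHcar1 cells for 17 and lower for 5 (median 0.43), and 13 and 6 with library sums set equal. Hspa5, the ER chaperone BiP, went from 136, 136 and 139 to 1341, 1328 and 1317 FPKM in sgControl cells and from 295, 285 and 289 to 2507, 2543 and 2482 in sgHcar1 cells. The changes were 3.27 ± 0.02 and 3.11 ± 0.02, and the small difference of -0.15 ± 0.03 was called (adjusted p = 0.00296), whereas the step in FPKM was larger in sgHcar1 cells by 1030 FPKM. Creld2 (1.42 ± 0.09), the ER co-chaperone Dnajb9 (1.29 ± 0.06) and Sdf2l1 (1.21 ± 0.12) rose more in sgHcar1 cells. Herpud1, part of the ER degradation machinery, rose from 42.1 to 45.3 up to 297 to 313 FPKM in sgControl cells but only from 34.4 to 35.4 up to 81.6 to 83.2 in sgHcar1 cells (-1.57 ± 0.04).

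Responses of equal size could be set apart from those merely without a call. For 102 genes both lactate effects were at least 2-fold in the same direction and the 95% interval of the difference lay within -0.32 to 0.32, with 63 rising and 39 falling. Besides Ppp1r15a and Hspa5, the rising ones with the largest effects were Sqstm1, the autophagy receptor p62 (177 to 189 up to 1183 to 1239 FPKM, and 174 to 180 up to 1027 to 1059), the transcription factor Ets2 and the small nucleolar RNA host gene Snhg12. The falling ones with the largest effects were the lactate exporter Slc16a3 (39.6 to 40.8 down to 6.48 to 7.46 FPKM, and 45.6 to 46.2 down to 7.53 to 7.59), Higd1a, the pyruvate dehydrogenase kinase Pdk1, and the sugar enzymes Tpi1 and Pgm2. The difference for Slc16a3 was -0.06 ± 0.06 and that for Pdk1 0.09 ± 0.07, neither called, while that for Sqstm1, -0.19 ± 0.05, was called although within these limits. With library sums set equal 65 genes met the same limits.

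Targets of NRF2, the factor that induces antioxidant genes, had 13 higher and 1 lower change in sgHcar1 cells among 19 (median 0.58), of 25 listed. With library sums set equal 12 were higher and 5 lower (median 0.35), and under quantile normalization 12 and 4 (median 0.33). Hmox1, which breaks down heme, rose from 7.81, 9.64 and 8.50 to 238, 251 and 229 FPKM in sgControl cells and from 23.4, 27.4 and 22.3 to 2499, 2241 and 2440 in sgHcar1 cells (1.92 ± 0.12). Gclm, the regulatory subunit of the glutathione-making ligase, rose from 36.4 to 39.9 up to 54.5 to 61.4 FPKM in sgControl cells and from 41.8 to 47.5 up to 284 to 308 in sgHcar1 cells (2.09 ± 0.08). Osgin1 (2.39 ± 0.12) and the exporter Abcc4 (1.62 ± 0.08) also rose in both populations, more so in sgHcar1 cells, and the biliverdin reductase Blvrb fell in sgControl cells and rose in sgHcar1 cells (1.18 ± 0.09). Iron handling genes had 5 higher and 5 lower changes of 14, beside 30.4% and 28.7% of all genes tested, and 5 and 8 with library sums set equal. The transferrin receptor Tfrc fell from 22.5 to 24.98 down to 15.1 to 15.4 FPKM in sgControl cells and rose from 41.1 to 43.1 up to 49.4 to 54.2 in sgHcar1 cells (0.87 ± 0.06). The metal importer Slc39a14 rose in sgControl cells from 5.78 to 5.86 up to 29.6 to 30.5 FPKM, and from 7.38 to 8.17 up to 11.8 to 12.1 in sgHcar1 cells (-1.61 ± 0.05). Of 4 metallothionein and zinc response genes, not all of them metallothioneins, 1 had a higher and 2 a lower change. The metallothionein Mt2 fell from 857 to 941 down to 436 to 463 FPKM in sgHcar1 cells, with no called change in sgControl cells (-0.96 ± 0.07).

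Immediate early genes, which respond within minutes to growth factor and stress kinases, had 10 higher and 3 lower changes among the 16 of 26 that were measured in every library (median 0.58), and 10 and 6 with library sums set equal (median 0.36). Jun, a subunit of AP-1, fell from 84.4, 79.6 and 79.5 to 54.3, 62.7 and 58.2 FPKM in sgControl cells and rose from 42.4, 40.9 and 41.7 to 163, 145 and 166 in sgHcar1 cells (2.37 ± 0.08). The order of the guides turned without overlap. Zfp36, which promotes decay of cytokine mRNAs (1.82 ± 0.11), and the factors Ier5 (1.35 ± 0.08) and Klf6 (1.23 ± 0.05) rose in both, more in sgHcar1 cells. Feedback genes of the ERK kinases had 6 higher and 6 lower changes of 17, and 5 and 9 with library sums set equal. Over all genes tested 30.4% had a higher and 28.7% a lower change. Dusp5, a nuclear ERK phosphatase, fell in sgControl cells and rose from 20.4 to 22.4 up to 53.1 to 54.6 FPKM in sgHcar1 cells (1.55 ± 0.11), while its cytosolic relative Dusp6 rose from 19.3 to 22.02 up to 26.0 to 27.1 in sgControl cells and fell from 61.5 to 64.5 down to 36.6 to 39.8 in sgHcar1 cells (-1.09 ± 0.07). Phlda1 rose from 15.9 to 17.5 up to 169 to 193 FPKM in sgHcar1 cells and from 7.58 to 7.97 up to 11.1 to 13.3 in sgControl cells (2.74 ± 0.10).

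The list of Gi signalling parts also held G protein subunits of other families. Its counts therefore do not describe the inhibitory arm, to which HCAR1 couples, alone. Of its 28 genes, 18 were measured in every library, and 8 had a higher and 4 a lower change (median 0.11). This direction turned with library sums set equal (3 and 8, median -0.10) and under quantile normalization (median -0.03). Gnai3, an inhibitory G protein subunit, had 82.6 to 85.8 and 79.0 to 83.8 FPKM in sgControl cells without a called change and rose from 74.8 to 78.0 up to 109 to 112 in sgHcar1 cells (0.55 ± 0.04). Gna11, a Gq family subunit, fell in both, more in sgHcar1 cells (-0.74 ± 0.08). Of 9 cyclic AMP-responsive genes measured in every library, out of 20 listed, 5 had a higher and 1 a lower change (median 0.48). Among them Dusp1, a MAP kinase phosphatase, had 37.7 to 40.2 and 30.8 to 38.0 FPKM in sgControl cells without a called change, and rose from 4.54 to 5.53 up to 23.8 to 25.6 in sgHcar1 cells (2.26 ± 0.11). The clock gene Per1 rose in both (0.75 ± 0.08).

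NF-kB targets, 17 of 34 measured in every library, all had a called difference, 10 higher and 7 lower (median 0.25), and 7 and 7 with library sums set equal. The chemokine Cxcl1 rose from 41.7, 45.1 and 46.8 to 129, 153 and 141 FPKM in sgControl cells and from 2.13, 2.01 and 2.29 to 40.1, 42.5 and 38.9 in sgHcar1 cells. The sgHcar1 libraries in lactate thus overlapped the sgControl libraries in PBS, and the difference was 2.08 ± 0.09 in log2 units and -58.2 in FPKM. The inhibitor Nfkbib (1.61 ± 0.05), the subunit Relb (1.06 ± 0.06) and the chemokine Cxcl10 (1.41 ± 0.16) rose in both populations, more in sgHcar1 cells. Interferon-stimulated genes went the other way, with 1 higher and 11 lower changes among 18 of 36 (median -0.35). Isg15, a ubiquitin-like modifier, rose from 2.18 to 3.57 up to 9.27 to 11.8 FPKM in sgControl cells, and was at 140 to 150 and 149 to 157 in sgHcar1 cells without a called change (-1.58 ± 0.16). The factor Irf1 had no called change in sgControl cells and fell from 9.19 to 10.04 down to 3.48 to 3.86 FPKM in sgHcar1 cells (-1.21 ± 0.07). Of 9 antigen presentation genes 1 had a higher and 5 a lower change. Tap2, a peptide transporter, rose in both, less in sgHcar1 cells (-0.76 ± 0.06). H2-K1 rose slightly in sgControl cells alone (-0.28 ± 0.07), and B2m rose in both, more in sgHcar1 cells (0.28 ± 0.05), which was -0.00 under quantile normalization.

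Mitosis genes fell in both populations and more in sgHcar1 cells. All 36 on the list fell in both, by a median of 1.28 in sgControl and 1.71 in sgHcar1 cells on the log2 scale, and 31 had a lower and 2 a higher change in sgHcar1 cells (median -0.70). Cyclin A2, Ccna2, fell from 102, 104 and 101 to 29.5, 29.1 and 30.4 FPKM in sgControl cells and from 62.9, 62.5 and 63.0 to 6.49, 7.46 and 6.83 in sgHcar1 cells (-1.26 ± 0.05), while the step in FPKM was smaller in sgHcar1 cells by 16.8 FPKM. The spindle motor Kif11 fell from 59.3 to 61.6 down to 29.6 to 31.3 FPKM and from 47.6 to 50.5 down to 9.33 to 9.75 (-1.28 ± 0.05). Securin, Pttg1 (-1.21 ± 0.10), and separase, Espl1 (-1.19 ± 0.08), had the same pattern. DNA replication genes fell as a group too, but without such a lean: 10 had a higher and 8 a lower change of 37 (median -0.00), and 6 and 21 with library sums set equal. Thymidine kinase Tk1 fell more in sgHcar1 cells in log2 units (-0.69 ± 0.05) and less in FPKM. The origin recognition gene Orc1 fell from 7.64 to 8.20 down to 3.67 to 4.12 FPKM in sgControl cells and had 4.44 to 5.41 and 4.84 to 6.25 in sgHcar1 cells without a called change (1.03 ± 0.12).

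Of 17 cyclins, CDKs, CDK inhibitors, RB family genes and MYC partners, 4 had a higher and 9 a lower change (median -0.29). Cdkn1b, the inhibitor p27, rose slightly in sgControl cells, from 17.9 to 18.3 up to 20.3 to 20.7 FPKM, and fell from 16.7 to 17.2 down to 5.47 to 7.26 in sgHcar1 cells (-1.44 ± 0.10). Cdkn2c, the inhibitor p18, fell from 37.8 to 39.2 down to 10.02 to 12.1 FPKM and from 47.1 to 52.0 down to 4.08 to 4.81 (-1.50 ± 0.10), and the MYC antagonist Mxd3 also fell more in sgHcar1 cells (-1.43 ± 0.15). Cyclin D2, Ccnd2, rose from 5.69 to 6.77 up to 20.2 to 20.6 FPKM in sgControl cells and from 24.3 to 25.7 up to 27.9 to 30.1 in sgHcar1 cells (-1.37 ± 0.07). Of 7 histone variants 5 had a lower and 1 a higher change, with the linker histone H1f0 falling from 515 to 545 down to 419 to 466 FPKM and from 355 to 369 down to 86.1 to 99.4 (-1.71 ± 0.08), and the DNA damage variant H2afx falling in both (-1.72 ± 0.08). Targets of p53 had 13 higher and 3 lower changes among 19 (median 0.33, and 6 and 3 with library sums set equal). The death receptor Tnfrsf10b rose more in sgHcar1 cells (1.20 ± 0.12), and the cyclin Ccng2 fell from 42.0 to 45.6 down to 8.27 to 9.26 FPKM in sgHcar1 cells and from 13.0 to 14.1 down to 9.87 to 10.2 in sgControl cells (-1.80 ± 0.07). Gadd45a, a stress gene that ATF4 also induces, rose from 4.02 to 4.72 up to 114 to 117 and from 16.4 to 18.0 up to 163 to 178 FPKM (-1.20 ± 0.08), a step larger in sgHcar1 cells by 41.5 FPKM. Of 15 BCL2 family genes 4 were higher and 9 lower, with Bok falling in both (-1.03 ± 0.08), less in FPKM in sgHcar1 cells.

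Cholesterol genes, most of them targets of SREBP2, fell further in sgHcar1 cells. Of 21 measured in every library, 17 had a lower and 1 a higher change (median -0.69), and lactate lowered 17 of them in sgControl and all 21 in sgHcar1 cells. Cyp51, a demethylase of sterol synthesis, had 75.4, 78.3 and 78.1 FPKM in sgControl cells in PBS and 66.5, 71.5 and 71.2 with lactate, against 78.7, 78.5 and 73.4 and then 28.0, 28.6 and 27.3 in sgHcar1 cells (-1.28 ± 0.05). The guides overlapped in PBS and stood apart in lactate. Nsdhl (-1.18 ± 0.07) and Sqle, squalene epoxidase (-1.12 ± 0.05), fell in both populations too. Fatty acid synthesis genes had 2 higher and 10 lower changes of 15 (median -0.45). Fasn, fatty acid synthase, fell from 56.1 to 62.3 down to 32.2 to 34.1 FPKM and from 44.0 to 50.2 down to 10.3 to 11.96 (-1.20 ± 0.09), and the desaturase Scd2 from 371 to 372 down to 208 to 219 and from 584 to 601 down to 150 to 157 (-1.13 ± 0.04). Of 18 genes of fatty acid oxidation 8 were higher and 4 lower (median 0.14, and -0.06 with library sums set equal). Cpt2, which loads fatty acids onto CoA in mitochondria, fell in both (-0.84 ± 0.10), and Etfdh, which passes their electrons on, fell in sgControl and rose in sgHcar1 cells (0.84 ± 0.06).

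Glycolysis genes fell in both populations. Of 11, 8 fell in sgControl and all 11 in sgHcar1 cells, and 4 had a higher and 5 a lower change there (median 0.11), a median that turned with library sums set equal (-0.12) and under quantile normalization (-0.20). Hexokinase 2, Hk2, rose from 14.1 to 16.8 up to 29.0 to 30.1 FPKM in sgControl cells and fell from 36.3 to 37.1 down to 23.5 to 26.4 in sgHcar1 cells (-1.41 ± 0.08). Pfkp, the platelet phosphofructokinase, fell in both, more in sgHcar1 cells (-0.94 ± 0.07), and Tpi1 fell by 1.90 and 1.72 on the log2 scale, a difference of 0.17 ± 0.06 that was -0.05 with library sums set equal and -299 in FPKM. Genes that handle lactate and pyruvate had 8 higher and 1 lower change of 16 (median 0.14, and -0.08 with library sums set equal). Ldha, the lactate dehydrogenase subunit, fell from 1057 to 1140 down to 195 to 211 FPKM in sgControl cells and from 1791 to 1841 down to 561 to 589 in sgHcar1 cells, a difference of 0.79 ± 0.06 in log2 units and of -347 in FPKM. Hypoxia-inducible genes, 16 of 27, had 4 higher and 8 lower changes. Fam162a, a mitochondrial HIF target, fell by 2.32 and 1.79 on the log2 scale (0.54 ± 0.05, but -148 in FPKM), and Ndrg1 rose in both, less in sgHcar1 cells (-0.68 ± 0.06).

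Mitochondrial and ribosomal genes had small differences. Of 37 nuclear genes of the respiratory chain 24 had a higher and 1 a lower change (median 0.26, and 12 and 8 with library sums set equal), and 36 of the 37 fell in sgControl cells. The subunits Cox7a2 of complex IV (0.69 ± 0.08) and Ndufb3 of complex I (0.62 ± 0.07) fell in both, less in sgHcar1 cells. Mitochondrial ribosomal proteins had 13 higher and 5 lower changes of 30 (median 0.15, and -0.05 with library sums set equal). Among them Mrpl16 fell from 18.0 to 21.3 down to 11.6 to 14.0 FPKM in sgControl cells and rose from 21.3 to 21.7 up to 43.4 to 51.8 in sgHcar1 cells (1.69 ± 0.11). Cytosolic ribosomal proteins, whose reads may be shared with processed pseudogenes, had 22 higher and 1 lower change of 47 (median 0.19), but the median turned with library sums set equal (-0.04, with 3 higher and 10 lower) and under quantile normalization (-0.12, with 1 and 18). Rps2 fell in sgControl cells and had no called change in sgHcar1 cells (0.71 ± 0.09). Ribosome biogenesis genes had 21 higher and 1 lower change of 30 (median 0.39, and 16 and 8 with library sums set equal), with the methyltransferase Ftsj3 (0.88 ± 0.06) and the helicase Ddx21 (0.66 ± 0.06) rising in both. Lysosome and autophagy genes had 15 higher and 7 lower changes of 29 (median 0.17, and -0.04 with library sums set equal), and Gabarapl1, an ATG8 protein of autophagosomes, rose from 25.3 to 27.7 up to 72.5 to 76.1 FPKM and from 27.6 to 29.8 up to 177 to 181 (1.13 ± 0.05).

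**Figure D5:**
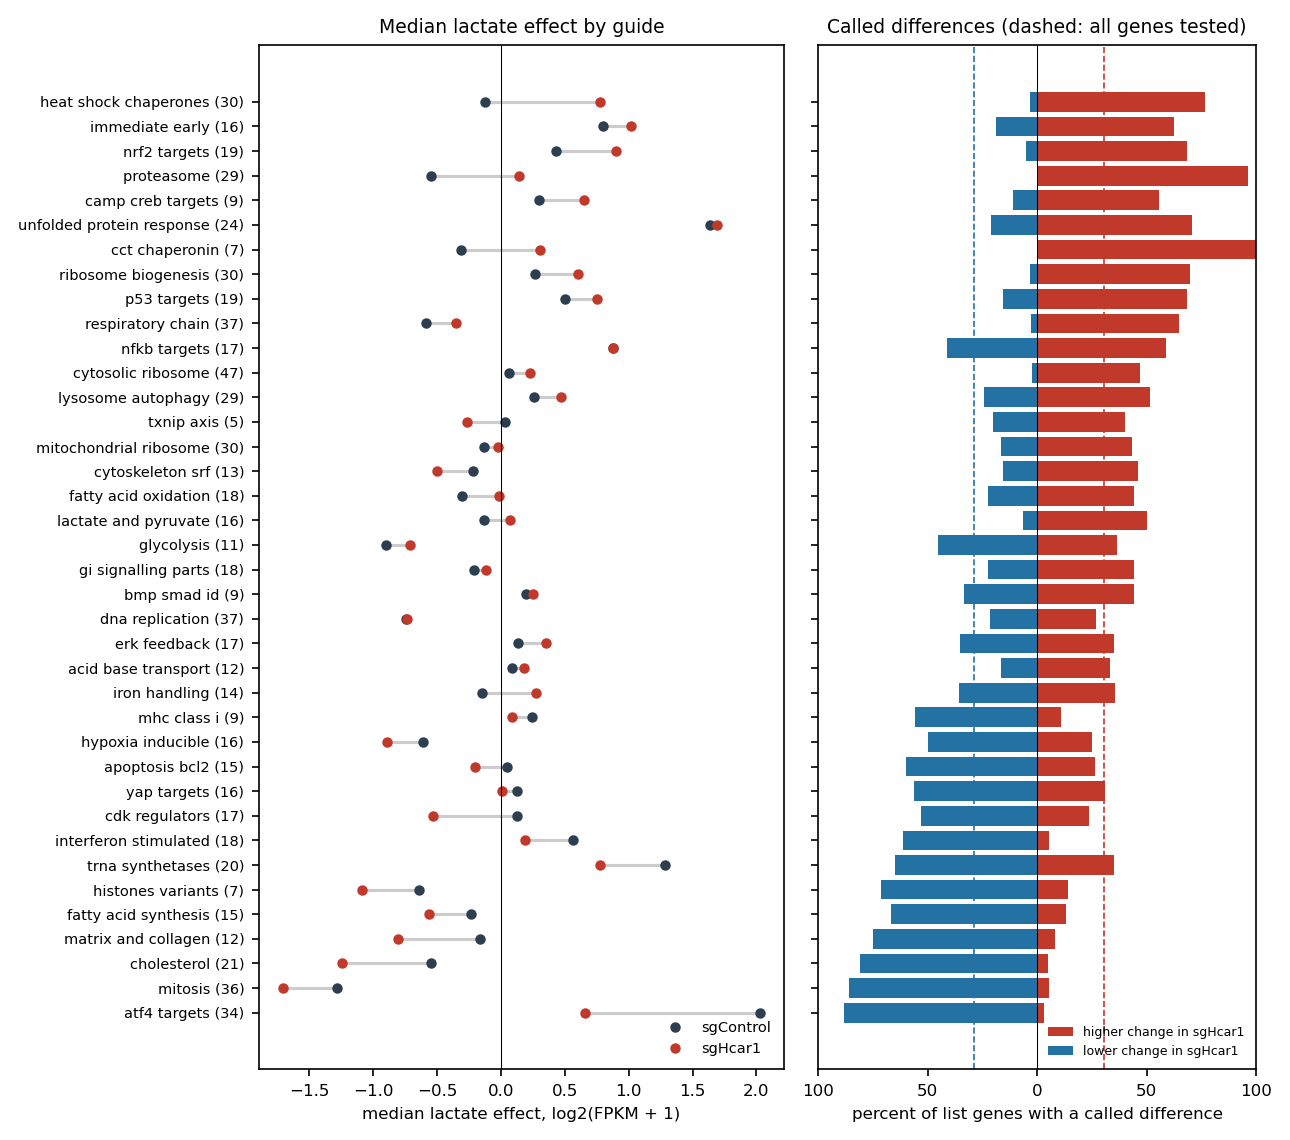
Left, the median lactate effect (log2(FPKM + 1)) over the genes of each list in sgControl and sgHcar1 cells, with the number of genes measured in every library in brackets; right, the percent of these genes with a called higher or lower change in sgHcar1 cells, with dashed lines at the shares over all genes tested (30.4% and 28.7%). Heat shock chaperones (23 of 30) and the proteasome (28 of 29) lean to a higher change, and ATF4 targets (30 of 34), mitosis (31 of 36) and cholesterol genes (17 of 21) to a lower one.

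Matrix genes had 1 higher and 9 lower changes among the 12 of 33 that were measured in every library (median -0.64). Mmp14, a membrane-bound collagenase, rose from 45.7, 47.0 and 46.4 to 57.2, 55.7 and 56.4 FPKM in sgControl cells and fell from 22.5, 21.3 and 20.1 to 6.404, 6.53 and 6.27 in sgHcar1 cells (-1.87 ± 0.05). Fibulin 2, Fbln2, fell from 131 to 141 down to 109 to 116 FPKM and from 43.7 to 45.3 down to 13.8 to 14.8 (-1.31 ± 0.05). Sparc, a collagen-binding glycoprotein, fell in both, more in sgHcar1 cells in log2 units (-1.18 ± 0.05) and less in FPKM. The inhibitor Timp1 fell from 162 to 172 down to 95.6 to 102 FPKM in sgControl cells and rose from 50.5 to 57.9 up to 61.8 to 72.6 in sgHcar1 cells (1.03 ± 0.09). Fbln2 is also 1 of the 12 fibroblast markers, whose sum fell from 276 to 286 down to 238 to 253 FPKM in sgControl cells and from 185 to 196 down to 81.9 to 86.8 in sgHcar1 cells; their part in the matrix result was not tested.

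The list for YAP and TEAD, mechanically controlled growth regulators, held genes of the regulators themselves beside their targets. Of its 16 members, 5 had a higher and 9 a lower change, and the leading targets went apart. Cyr61, a matricellular protein, had 70.2, 67.8 and 63.7 FPKM in sgControl cells in PBS and 58.0, 67.3 and 66.9 with lactate, and rose from 67.7, 70.7 and 70.9 to 672, 662 and 565 in sgHcar1 cells (3.23 ± 0.10). Ankrd1, another widely used YAP target, did the reverse: it rose from 69.4, 75.3 and 70.6 to 227, 234 and 230 FPKM in sgControl cells and had 52.2, 55.1 and 56.1 and then 49.4, 53.1 and 51.8 in sgHcar1 cells, without a called change (-1.75 ± 0.06). In PBS the guides overlapped for Cyr61, while Ankrd1 was lower in sgHcar1 cells, and each gene had a called lactate effect in 1 population alone. Of 9 BMP-SMAD genes 4 were higher and 3 lower (median 0.06, and -0.16 with library sums set equal). Id1, an inhibitor of bHLH factors, fell from 55.2 to 65.7 down to 11.4 to 12.9 FPKM and from 26.1 to 28.5 down to 11.6 to 15.4 (1.22 ± 0.13). Cytoskeletal SRF targets had 6 higher and 2 lower changes of 13 (median 0.15, and -0.08 with library sums set equal), with Actb falling in both, less in sgHcar1 cells (0.61 ± 0.04).

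Acid and glucose sensing genes were measured with few members. Of 12 acid-base transporters and carbonic anhydrases 4 had a higher and 2 a lower change, and 4 and 7 with library sums set equal. Carbonic anhydrase 13, Car13, fell from 42.0 to 43.6 down to 29.1 to 30.7 FPKM in sgControl cells and rose from 5.47 to 6.41 up to 12.2 to 14.1 in sgHcar1 cells (1.51 ± 0.08). In the Txnip group, 5 genes of arrestins and regulators were measured in every library, and Txnip itself was not among them. Of these 5, 2 had a higher and 1 a lower change (median 0.15), and 1 and 2 with library sums set equal (median 0.02). The arrestin Arrdc1 had 8.12 to 8.65 and 8.52 to 9.35 FPKM in sgControl cells without a called change and fell from 8.81 to 9.36 down to 4.21 to 4.34 in sgHcar1 cells (-0.999 ± 0.06).

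Genes called in opposite directions, 889 in all, were led by a few with sizeable changes on both sides. Besides Vldlr, the matrix protease Mmp11 rose from 16.2 to 17.5 up to 30.0 to 31.8 FPKM in sgControl cells and fell from 9.56 to 11.3 down to 3.43 to 3.78 in sgHcar1 cells (-2.19 ± 0.08). Rin1, a Ras effector, rose from 28.9 to 29.6 up to 70.0 to 74.4 FPKM in sgControl cells and fell from 68.5 to 74.3 down to 38.5 to 41.3 in sgHcar1 cells (-2.10 ± 0.05). Its sgControl libraries in lactate overlapped the sgHcar1 libraries in PBS. The kinase Map3k6 (-1.69 ± 0.07), the protease Adamts1 (-1.23 ± 0.07) and the palmitoyltransferase Zdhhc18 (-1.21 ± 0.08) also rose in sgControl and fell in sgHcar1 cells. In the other direction, Igfbp4, which binds insulin-like growth factors, fell from 253, 237 and 238 to 125, 120 and 124 FPKM in sgControl cells and rose from 2.16, 1.98 and 2.12 to 7.04, 7.40 and 7.24 in sgHcar1 cells (2.39 ± 0.05). The guides stayed far apart for it in both treatments. Besides Cryab and Mrpl16, the phosphatase subunit gene Ppp1r10 (1.42 ± 0.10), Prr7 (1.83 ± 0.12) and the EMT factor Snai1 (1.28 ± 0.17) fell in sgControl and rose in sgHcar1 cells.

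Further genes among the 15 largest differences on each side stood on none of the lists. On the positive side, Dedd2, a death effector domain protein, rose from 2.05 to 2.35 up to 2.85 to 3.602 FPKM in sgControl cells and from 1.44 to 1.87 up to 24.9 to 28.9 in sgHcar1 cells (2.99 ± 0.12). Arl5b, a small GTPase of the ARF family, rose from 1.99 to 2.06 up to 4.83 to 5.41 FPKM and from 2.94 to 3.14 up to 37.5 to 42.3 (2.32 ± 0.07). The nuclear factor Csrnp1 rose in both (2.28 ± 0.09). Mcts2, a retrogene copy of Mcts1 whose reads may be shared with it, had no called change in sgControl cells and rose from 4.77 to 5.47 up to 34.9 to 37.5 FPKM in sgHcar1 cells (2.54 ± 0.09). On the negative side, Add3, a membrane skeleton adducin, rose from 27.4 to 29.2 up to 36.7 to 40.02 FPKM in sgControl cells and fell from 14.5 to 16.1 down to 4.04 to 4.69 in sgHcar1 cells (-2.07 ± 0.08). Trim46 rose from 1.44 to 1.59 up to 24.9 to 26.6 FPKM and from 3.48 to 4.26 up to 11.3 to 12.3 (-1.95 ± 0.09). Glrp1 rose from 3.16 to 3.75 up to 12.1 to 13.1 FPKM in sgControl cells and fell slightly from 46.2 to 48.9 down to 38.6 to 41.6 in sgHcar1 cells (-1.87 ± 0.07).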

How the data were processed

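RNA of 12 libraries was extracted with Trizol and made into TruSeq libraries, per the labels' protocols. The authors deposited 1 table of FPKM, whose header names the unit. The submitters' processing notes name the aligner HISAT2 2.0.5, the build GRCm38 and the counter featureCounts 1.5.0-p3. Which fragments form the library total is not given in the sources used here, and FPKM hold no counts. Columns were assigned by their letters and numbers, those of sgHcar1 cells by elimination.

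FPKM were analysed as log2(FPKM + 1), which understates changes of low genes. Genes that reached 1 FPKM in 3 or more libraries were fitted with limma 3.58.1 in R 4.3.3, with 1 mean per group, no replicate block and an intensity trend. Tests were two-sided, with Benjamini-Hochberg adjustment over 13736 genes in each of 5 contrasts and a threshold of 0.05. Genes and lists were chosen with earlier results of these data known, so lists are described by counts and medians only. Named genes were the 15 largest called differences on each side with a standard symbol, 6 per direction of opposite changes, 5 rising and 5 falling alike genes, up to 4 called members of each list, any chaperone or ATF4 target, and Hcar1, and a few that meet this rule are not reported here. Promoter windows came from RefSeq (GRCm38.p6), with 25 of 30 chaperone genes and 29 of 34 ATF4 targets matched by symbol. Figures used Python 3.11.15, pandas 2.3.3 and matplotlib 3.10.9. Alternatives changed 1 setting at a time: pseudocount, expression minimum, scaling, trend, weights, minimum fold, untransformed FPKM, replicate block and leaving out each library.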

Additional observations from a re-analysis of the deposited data

Results flagged for a closer look

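A difference between the lactate effects of the 2 guides, tested in limma as an interaction, was called for 6182 genes, and for 889 of them lactate moved the gene in opposite directions. The following genes were singled out because both opposite effects were called and the lesser one was among the largest. With a rise in sgControl and a fall in sgHcar1 cells, the differences were -3.21 for Vldlr, -2.19 for Mmp11, -2.10 for Rin1, -1.69 for Map3k6, -1.23 for Adamts1 and -1.21 for Zdhhc18, in log2 units. With a fall in sgControl and a rise in sgHcar1 cells, they were 2.36 for Cryab, 2.39 for Igfbp4, 1.42 for Ppp1r10, 1.83 for Prr7, 1.69 for Mrpl16 and 1.28 for Snai1. Each of the 12 kept its call when any 1 library was left out.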

How the results depend on the processing

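The count of 6182 called genes was 5871 to 6051 when any 1 library was left out. With a replicate block it was 6138, and 97.3% of the calls were kept with the same sign. Kept calls came to 76.6% with library sums set equal, 87.8% under quantile normalization and 85.5% in untransformed FPKM. Testing against a minimum fold of 1.5 kept 13.6%. Same-numbered libraries did not deviate together (correlations of -0.13 to 0.18), so the numbers were not treated as pairs, and the block changed no call of a gene named here. A pseudocount of 0.1 gave 417 genes at least 2-fold lower in place of 270. With library sums set equal, 1764 genes were called higher and 4606 lower, 171 and 718 at least 2-fold, and 65 were alike. A test against a minimum fold of 1.5 called 842 genes, 424 higher and 418 lower. Of these, 121 moved the same way and more in sgHcar1 cells, 29 the same way and less, 6 in opposite directions, 430 in sgHcar1 and 122 in sgControl cells alone. Requiring each effect to be 1.5-fold gave 315 and 68 genes with the same direction, more and less in sgHcar1 cells, and 24 opposite. Another 974 were called in sgHcar1 cells alone, then the most frequent pattern, and 300 in sgControl cells alone. An interval limit of 0.58 gave 201 alike genes. Signs turned with library sums set equal for Trap1 (-0.0391) and Tpi1 (-0.0547), and under quantile normalization for B2m (-0.000113). In untransformed FPKM they turned for Hspa9 (3.74), Ddit3 (132), Asns (43.9), Sesn2 (1.44), Tubb6 (-14.8), Sars (46.9), Hspa5 (1030), Cxcl1 (-58.2), Gadd45a (41.5), Ccna2 (16.8), Tk1 (7.18), Ldha (-347), Tpi1 (-299), Fam162a (-148), Sparc (86.3) and Bok (5.91), since steps from unequal starts differ between scales by construction. Without the third sgHcar1 PBS library, Ets2 gained a call (0.16). The table gives no read depth, so counting error at low levels is unknown.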

Other observations

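Genes below 1 FPKM in some libraries were tested but fell outside the set described, and several differed strongly. They were picked after their values were seen. Atf3, a stress-induced transcription factor, had 1.92 to 2.88 FPKM in sgControl cells in PBS and 60.7 to 67.9 with lactate, and at most 0.105 in the 6 sgHcar1 libraries. Gdf15, a stress hormone, had 0.591 to 1.13 FPKM in sgControl cells in PBS and 38.3 to 40.3 with lactate, and 0.176 to 0.359 and then 2.09 to 2.81 in sgHcar1 cells. Fos had at most 0.371 FPKM in sgControl cells and with sgHcar1 at most 0.277 in PBS, against 8.85 to 10.4 after lactate. Arc, a gene induced by kinase signalling, had 3.08 to 3.26 FPKM in sgControl cells in PBS and 0.933 to 1.75 with lactate, against 0.79 to 0.947 and then 13.4 to 20.9 in sgHcar1 cells.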
